A study of Mus musculus with 4 samples.

Results

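Fasting and PPARα response genes were examined in liver of 4 aP2-SREBP-1c mice, with 1 array per mouse. The 9 genes, out of 19938 genes with a probe set of their own on the arrays, comprised Cyp4a10, Cyp4a14, Pdk4, Acot1, Acaa1b, Vnn1, Angptl4, Fgf21 and Ppargc1a. They were taken by symbol, and where a gene had several probe sets annotated to it alone, the probe set with the highest mean over the 4 arrays was used. All mice were male, 24 weeks old by the sample labels, and carried the transgene aP2-HA-hSREBP-1c-NT on C57Bl6. In these mice, the aP2 promoter drives the active N-terminal part of human SREBP-1c in adipocytes, not in liver, and the loss of adipose tissue leads to lipid overflow and massive hepatic steatosis. The mice had free access to regular chow and were killed at 7 am under a cycle of 12 h light and 12 h dark. Whether food was withdrawn before is not stated, and all mice belonged to 1 group without fasted or non-transgenic animals in the present data. The labels therefore imply no contrast, so that levels and differences between individual livers are reported without p-values. A response to fasting or to a PPARα ligand, after which the genes are named, could not be checked.

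PPARα is a nuclear receptor that is activated by fatty acids and binds DNA together with RXR. In the fasted liver, when adipose tissue releases fatty acids, it drives genes of fatty acid uptake, microsomal ω-oxidation, peroxisomal and mitochondrial β-oxidation and ketogenesis. Some of its targets, such as Cyp4a10 and Cyp4a14, respond strongly to ligands, whereas others, such as Fgf21, Angptl4 and Ppargc1a, also integrate signals of glucagon, glucocorticoids, hypoxia or amino acid shortage.

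All values are log2 expression values (RMA) of single probe sets, which differ in brightness, so that levels were compared between mice and not between genes. Receptors of the olfactory and vomeronasal system, silent in liver, served as the background. The value below which 95% of their 1212 probe sets lay was the limit of an array (5.33 to 5.52, log2), and genes beyond it in each of the 4 mice were counted as above background. All 9 response genes were above background, as were 61.5% of all named genes. With the limit at the 99th percentile of the receptor probe sets, 8 of the 9 passed, all but Acot1. Hepatocyte markers were present at high levels in each mouse, with a mean log2 level over the 6 listed genes of 13.46, 13.55, 13.58 and 13.51 in mice 1 to 4. The array of mouse 1 stood apart. Relative to the mean of the other mice, genes of its lowest expression class were higher by a median of 0.13 on the log2 scale, and genes of its highest class had a median difference of -0.23. The main results for the response genes and for other PPARα targets are therefore also given after renewed scaling of the arrays or without this mouse. Values of single genes in other lists are given as deposited.

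**Figure D1:**
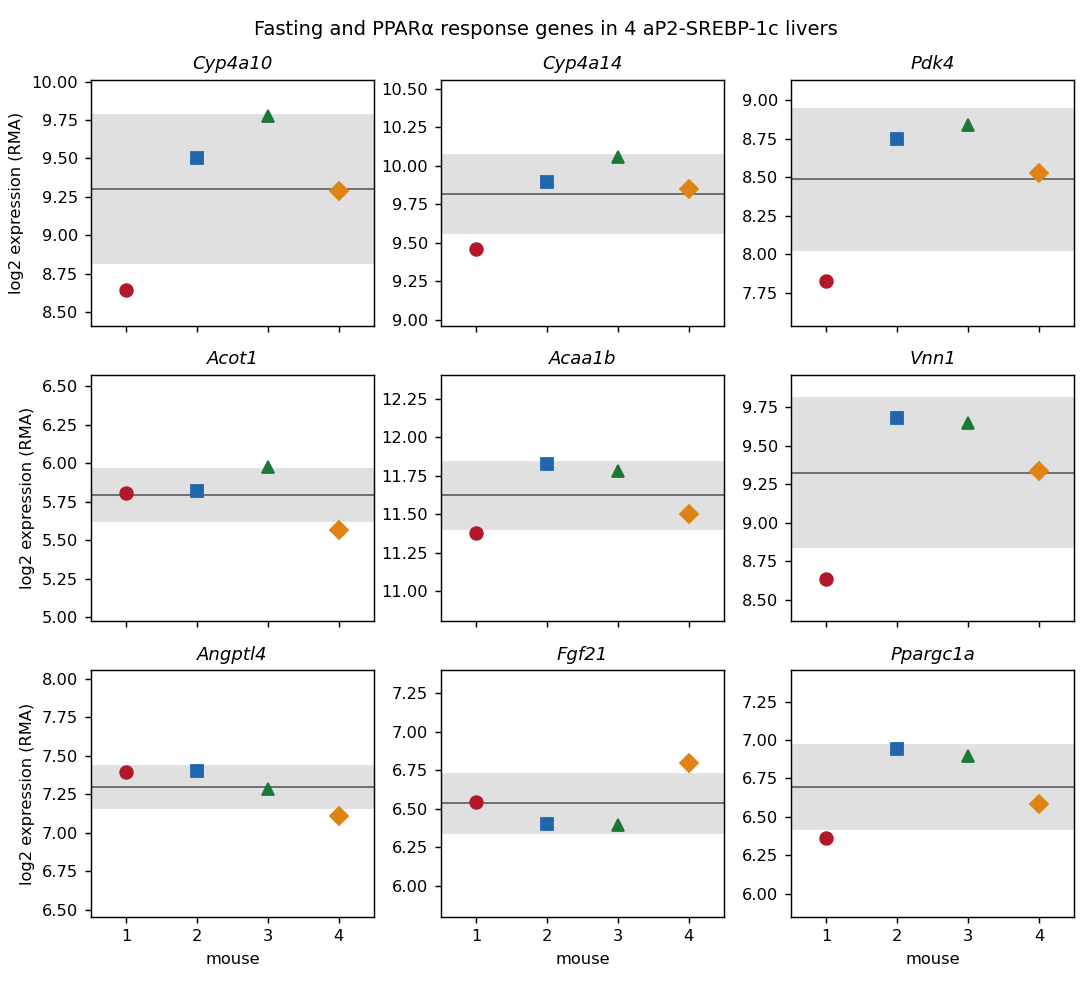
Log2 expression (RMA, y axis) of each response gene in the 4 aP2-SREBP-1c mice (x axis). Symbols stand for mice, the line for the mean and the grey band for ± SD (n = 4), and every panel spans the same log2 distance. Cyp4a10, Pdk4 and Vnn1 were low in mouse 1, and Fgf21 was highest in mouse 4.

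The ω-hydroxylases Cyp4a10 and Cyp4a14, microsomal cytochromes that hydroxylate the terminal carbon of fatty acids, were lowest in mouse 1 and highest in mouse 3. Cyp4a10 (probe set 10507163) was measured at 8.65, 9.50, 9.78 and 9.29 in mice 1 to 4 (log2), with a mean of 9.30 ± 0.48 (SD, n = 4). Its value in mouse 3 was 2.19-fold that in mouse 1, a range exceeded by 0.587% of all genes above background. Cyp4a14 (probe set 10515187) was measured at 9.46, 9.89, 10.06 and 9.85, with a mean of 9.81 ± 0.25 (SD, n = 4) and a range of 1.51-fold. Thus both genes had the same order of mice, with a smaller range for Cyp4a14. A further probe set, shared by Cyp4a10, Cyp4a31 and Cyp4a32 and therefore not used for Cyp4a10, gave 8.44, 9.52, 9.53 and 9.06. The signals of these closely related genes may overlap by cross-hybridization, which was not tested. For the paralogs with a probe set of their own, Cyp4a31 was measured at 6.75, 7.64, 7.99 and 7.22, and the androgen-dependent gene Cyp4a12a at 11.68, 12.01, 12.14 and 11.84. Cyp4a12b was measured at 11.44, 11.67, 11.78 and 11.51. In all of them mouse 1 was lowest, followed by mouse 4.

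Pdk4 and Vnn1 were also lowest in mouse 1, followed by mouse 4, with ranges close to that of Cyp4a10. Pdk4 (probe set 10543017) encodes a kinase that inactivates pyruvate dehydrogenase and thereby spares glucose while fatty acids are burned. It was measured at 7.83, 8.75, 8.84 and 8.52 in mice 1 to 4 (log2), with a mean of 8.49 ± 0.46 (SD, n = 4). The value of mouse 1 lay 1.84-fold below the mean of the others, whereas mice 2, 3 and 4 lay within 1.25-fold of each other. Vnn1 (probe set 10362138) encodes vanin-1, a pantetheinase of the plasma membrane that releases pantothenic acid and cysteamine. It was measured at 8.64, 9.68, 9.65 and 9.33, with a mean of 9.32 ± 0.48 (SD, n = 4), and mouse 1 lay 1.89-fold below the mean of the others. By SD, Vnn1 ranked 91st, Cyp4a10 101st and Pdk4 125th among 12265 genes above background, whose median SD was 0.15. The other vanin on the arrays, Vnn3, was measured at 8.30, 8.67, 8.80 and 8.44 and was also lowest in mouse 1.

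Of the genes for acyl-CoA handling, Acaa1b was also lowest in mouse 1 and next in mouse 4, with a smaller range, and Acot1 was not. Acaa1b (probe set 10597592), a thiolase of peroxisomal β-oxidation, was measured at 11.38, 11.83, 11.78 and 11.50 in mice 1 to 4 (log2), with a mean of 11.62 ± 0.22 (SD, n = 4) and a range of 1.37-fold. Its close paralog Acaa1a was measured at 8.01, 8.36, 7.65 and 7.90 and was lowest in mouse 3. Acot1 (probe set 10397148), a cytosolic thioesterase that releases free fatty acids from acyl-CoA, was measured at 5.81, 5.82, 5.98 and 5.57, with a mean of 5.79 ± 0.17 (SD, n = 4). Its signal was on average only 0.40 above the background limit on the log2 scale, and mouse 4 was lowest. In contrast, the mitochondrial paralog Acot2 had the widest range of all PPARα targets listed here. It was measured at 8.04, 9.62, 9.56 and 8.38, so that mouse 2 was 3.01-fold above mouse 1. The peroxisomal paralogs Acot4 (6.93, 7.87, 7.84 and 7.48) and Acot3 (6.18, 6.51, 6.33 and 6.35) were also lowest in mouse 1. Since Acot1 and Acot2 are similar in sequence, cross-hybridization is possible, and its part in these values was not tested.

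The secreted factors differed from this pattern. Angptl4 (probe set 10450038), an inhibitor of lipoprotein lipase, was measured at 7.39, 7.40, 7.29 and 7.11 on the log2 scale, with a mean of 7.30 ± 0.14 (SD, n = 4). Mice 1 and 2 were nearly equal, and the range of 1.22-fold was exceeded by 61.6% of genes above background. Fgf21 (probe set 10563344), a hepatokine that acts on cells with Klb and an FGF receptor, was measured at 6.54, 6.40, 6.40 and 6.80, with a mean of 6.53 ± 0.19 (SD, n = 4). It was the only one of the 9 genes with its highest value in mouse 4 (24.9% of all genes), which lay 1.28-fold above the mean of the other mice. Fgf21 is also expressed in pancreatic acinar cells, and transcripts of these cells differed between the livers. All 10 acinar genes above background, of 11 measured, had a range above 1.5-fold, compared to 12.9% of all genes. The mean log2 level of the 11 genes was 8.08, 6.10, 6.41 and 7.91 in mice 1 to 4. Among them, the carboxypeptidase Cpa1 was measured at 9.02, 6.31, 6.69 and 8.49, and the chymotrypsinogen Ctrb1, with the largest SD of the acinar list, at 9.49, 6.58, 7.14 and 9.01. The part of these transcripts in the values of Fgf21 was not tested. Both Fgf21 and each of the 11 measured acinar genes were higher in mice 1 and 4 than in mice 2 and 3. For Fgf21, mouse 1 lay only 0.014 above the mean of the other mice on the log2 scale. Genes outside the acinar list, such as Asns, Gadd45g, Irs2 and G0s2, had this pattern too. Its share of all genes was not counted, so that the match cannot be weighed. Of the 11 acinar genes, 8 were highest in mouse 1 (22.9% of all genes), and Prss2, Cpb1 and Pnliprp1 were, like Fgf21, highest in mouse 4 (24.9%).

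Ppargc1a (probe set 10529979) encodes PGC-1α, a coactivator of PPARα and other nuclear receptors in fasting. It was measured at 6.36, 6.94, 6.89 and 6.58 in mice 1 to 4 (log2), with a mean of 6.70 ± 0.27 (SD, n = 4) and a range of 1.49-fold. Mouse 1 was lowest and mouse 4 next, as for Cyp4a10, Pdk4 and Vnn1. A second probe set for Ppargc1a gave 4.63, 4.30, 4.32 and 4.75, below the background limit in all 4 mice, and did not show this order.

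Taking the 9 genes side by side, 4 of them, Cyp4a10, Cyp4a14, Pdk4 and Vnn1, had a range above 1.5-fold (highest over lowest mouse), a limit passed by 12.9% of all genes above background. A 2-fold range was passed by 3 of them, compared to 1.13% of all genes. Cyp4a14 (1.51-fold) lay just inside the 1.5-fold limit and Ppargc1a (1.49-fold) just outside it. Among mice 2 to 4, none of the 9 genes had a range above 1.5-fold, compared to 2.67% of all genes, so that the wide ranges rested on mouse 1. Mouse 3 exceeded mouse 1 by more than 1.5-fold in 4 of the 9 genes (6.12% of all genes). Mouse 2 exceeded mouse 1 in 3 genes (4.82% of all genes) and mouse 4 exceeded mouse 1 in 3 genes (2.36% of all genes). No other direction or pair separated any of the 9 genes by this limit. Of all genes, 1.76%, 2.03% and 1.74% were higher by more than 1.5-fold in mouse 1 than in mice 2, 3 and 4. Mouse 2 exceeded mice 3 and 4 in 0.228% and 0.905% of all genes, mouse 3 exceeded mice 2 and 4 in 0.171% and 0.766%, and mouse 4 exceeded mice 2 and 3 in 0.913% and 0.595%.

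In 6 of the 9 genes, mouse 1 was lowest, mouse 4 next and mice 2 and 3 highest, an order found in 22.6% of all genes above background. These were Cyp4a10, Cyp4a14, Pdk4, Acaa1b, Vnn1 and Ppargc1a. In 4 of the 9, the order came with a range above 1.5-fold, as in 5.76% of all genes. Mouse 1 was lowest in 46.1% of all genes, which limits what the position of this mouse shows. After quantile normalization of the 4 arrays, 5 of the 9 genes kept the order, since mice 1 and 4 changed places for Acaa1b, and the order was found in 18.2% of all genes. Under this scaling, Cyp4a10, Pdk4 and Vnn1 still had ranges of 1.86-fold, 1.75-fold and 1.83-fold, whereas that of Cyp4a14 was 1.28-fold. Mice 2 to 4 were also compared without mouse 1. Of these 3 mice, mouse 4 was lowest in 8 of 9 genes, all but Fgf21, compared to 41.3% of all genes above background. The median difference of mouse 4 from the mean of mice 2 and 3 was -0.30 on the log2 scale over the 9 genes and -0.02 over all genes above background. None of these differences between mouse 4 and mice 2 and 3 exceeded 1.5-fold, and with 1 array per mouse their technical error is unknown.

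**Figure D2:**
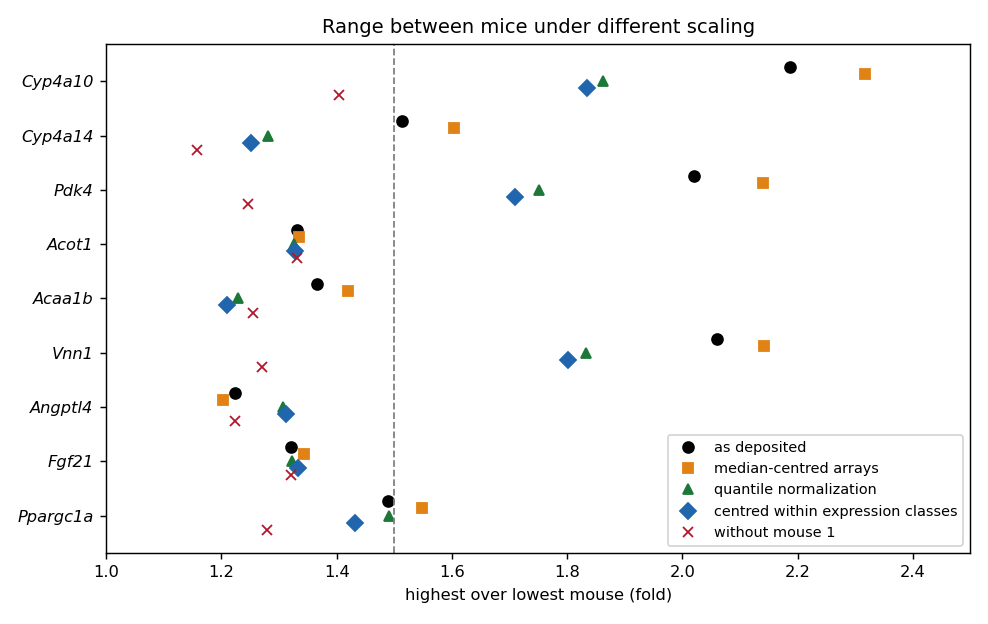
Ratio of the highest to the lowest mouse (fold, x axis) for each response gene (y axis) with the values as deposited, after 3 other ways of scaling the arrays, and without mouse 1. The dashed line marks 1.5-fold. Cyp4a10, Pdk4 and Vnn1 stayed above the line under each scaling and lay below it without mouse 1.

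Promoter sequences of 300 bases (250 before to 50 after the transcript start, RefSeq, GRCm38.p6) were at hand for 5 of the 9 genes, namely Pdk4, Acot1, Acaa1b, Fgf21 and Ppargc1a. Those of 3 genes that shared the order of mice and of Fgf21, which did not, are shown 5′ to 3′ on the strand of the gene. Pdk4 lies at chr6:5496229-5496528 (minus strand), Acaa1b at chr9:119157044-119157343 (minus strand), Ppargc1a at chr5:51567676-51567975 (minus strand) and Fgf21 at chr7:45615441-45615740 (minus strand). Capitals mark matches to the motifs named thereafter.
Pdk4: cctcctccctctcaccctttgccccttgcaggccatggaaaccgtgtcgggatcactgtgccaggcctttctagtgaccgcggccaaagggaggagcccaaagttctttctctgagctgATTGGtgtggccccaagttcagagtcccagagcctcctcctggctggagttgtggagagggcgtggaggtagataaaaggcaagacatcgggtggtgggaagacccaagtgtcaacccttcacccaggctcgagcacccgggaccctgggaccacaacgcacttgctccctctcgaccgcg
Acaa1b: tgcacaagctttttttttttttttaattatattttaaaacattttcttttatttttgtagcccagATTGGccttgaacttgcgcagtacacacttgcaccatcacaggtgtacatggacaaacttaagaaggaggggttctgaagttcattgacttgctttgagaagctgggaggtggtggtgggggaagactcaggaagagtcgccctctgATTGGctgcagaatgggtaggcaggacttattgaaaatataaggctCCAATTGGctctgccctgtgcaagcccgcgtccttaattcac
Ppargc1a: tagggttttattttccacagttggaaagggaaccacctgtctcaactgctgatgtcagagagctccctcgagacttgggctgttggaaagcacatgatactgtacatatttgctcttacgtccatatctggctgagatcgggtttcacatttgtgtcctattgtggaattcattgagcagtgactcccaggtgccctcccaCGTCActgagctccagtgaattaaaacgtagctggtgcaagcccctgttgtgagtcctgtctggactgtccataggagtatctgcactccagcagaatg
Fgf21: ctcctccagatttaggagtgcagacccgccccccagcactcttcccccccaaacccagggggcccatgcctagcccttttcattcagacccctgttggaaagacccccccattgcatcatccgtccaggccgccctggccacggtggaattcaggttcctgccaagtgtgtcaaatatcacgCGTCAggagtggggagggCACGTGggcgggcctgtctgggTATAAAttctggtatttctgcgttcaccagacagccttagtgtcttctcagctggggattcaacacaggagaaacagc
The element bound by PPARα and RXR is a direct repeat with 1 base between its half-sites. Neither AGGTCA repeated after 1 base of any kind, nor the same repeat of the relaxed half-site AGGNCA, nor a single AGGTCA occurred on either strand in the 5 promoters. Each repeat contains its half-site, so that these searches overlap. Of all 32851 promoters, 0.0396%, 0.381% and 16.3% held these motifs, and sequence outside this window was not searched. The cyclic AMP response half-site TGACG was present in Ppargc1a, 49 bases before the start, and in Fgf21, 68 bases before it, and was held by 20.8% of all promoters. Fgf21 also contained an E-box CACGTG 50 bases and a TATA box TATAAA 28 bases before the start (7.15% and 13.6% of all promoters). CCAAT, held by 37.4% of all promoters, was found in Pdk4, Acot1 and Acaa1b.

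Other PPARα targets were examined to see whether the order of the livers extended beyond the 9 genes. Of 52 listed genes, 46 had a probe set under their own symbol alone and 45 were above background, all but the uncoupling protein Ucp3. Of these 45 genes, 16 (35.6%) had a range above 1.5-fold, compared to 12.9% of all genes, and their median SD was 0.21 on the log2 scale compared to 0.15 for all genes above background. Mouse 1 was lowest in 39 of the 45 genes (86.7%, compared to 46.1% of all genes), and the order of mouse 1, mouse 4 and then mice 2 and 3 was found in 31 (68.9%, compared to 22.6%). After quantile normalization, 8 genes had a range above 1.5-fold (17.8%, compared to 10.6% of all genes). Under this scaling, mouse 1 was lowest in 27 (60.0%, compared to 36.1% of all genes) and the order was found in 19 (42.2%, compared to 18.2%). With the deposited values, mouse 4 was the lowest of mice 2 to 4 in 31 of the 45 genes, with a median difference from the mean of mice 2 and 3 of -0.11. Among all genes, 41.3% were lowest in mouse 4 of these 3 mice.

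Among the 16 targets with a wide range, genes of carnitine transport and mitochondrial β-oxidation were lowest in mouse 1. The carnitine-acylcarnitine carrier Slc25a20 was measured at 8.94, 9.82, 9.96 and 9.53 in mice 1 to 4 (log2), and the medium-chain acyl-CoA dehydrogenase Acadm at 10.46, 11.17, 11.15 and 10.81. Hadhb, a subunit of the trifunctional protein, had a range of 1.52-fold, and the carnitine transporter Slc22a5 one of 1.57-fold. Unlike Slc25a20 and Acadm, both were highest in mouse 4. Peroxisomal genes were also lowest in mouse 1. Their ranges were 1.55-fold for Pex11a, which promotes division of peroxisomes, 1.55-fold for the enoyl-CoA isomerase Eci2 and 1.60-fold for the dienoyl-CoA reductase Decr2. The fatty aldehyde dehydrogenase Aldh3a2 was measured at 10.86, 11.71, 11.65 and 11.33. The fatty acid translocase Cd36 was measured at 9.11, 9.85, 9.92 and 9.41, and the lipid droplet protein Cidec had a range of 1.55-fold. In each of these genes mouse 1 was lowest, as it was for Acot2, Acot4, Cyp4a31 and the acetyl-CoA hydrolase Acot12, with a range of 1.59-fold. Exceptions were Acaa1a, described above, and G0s2, an inhibitor of adipose triglyceride lipase, which was measured at 9.89, 9.37, 9.21 and 9.75 and was highest in mouse 1. Without mouse 1, only Acaa1a (1.63-fold), Acot2 (2.38-fold) and Cyp4a31 (1.71-fold) of the 45 genes had a range above 1.5-fold, compared to 2.67% of all genes. The smallest SDs were those of the lipase Pnpla2 (0.069), the fatty acid transporter Slc27a2 (0.071) and the transcription factor Creb3l3 (0.076).

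**Figure D3:**
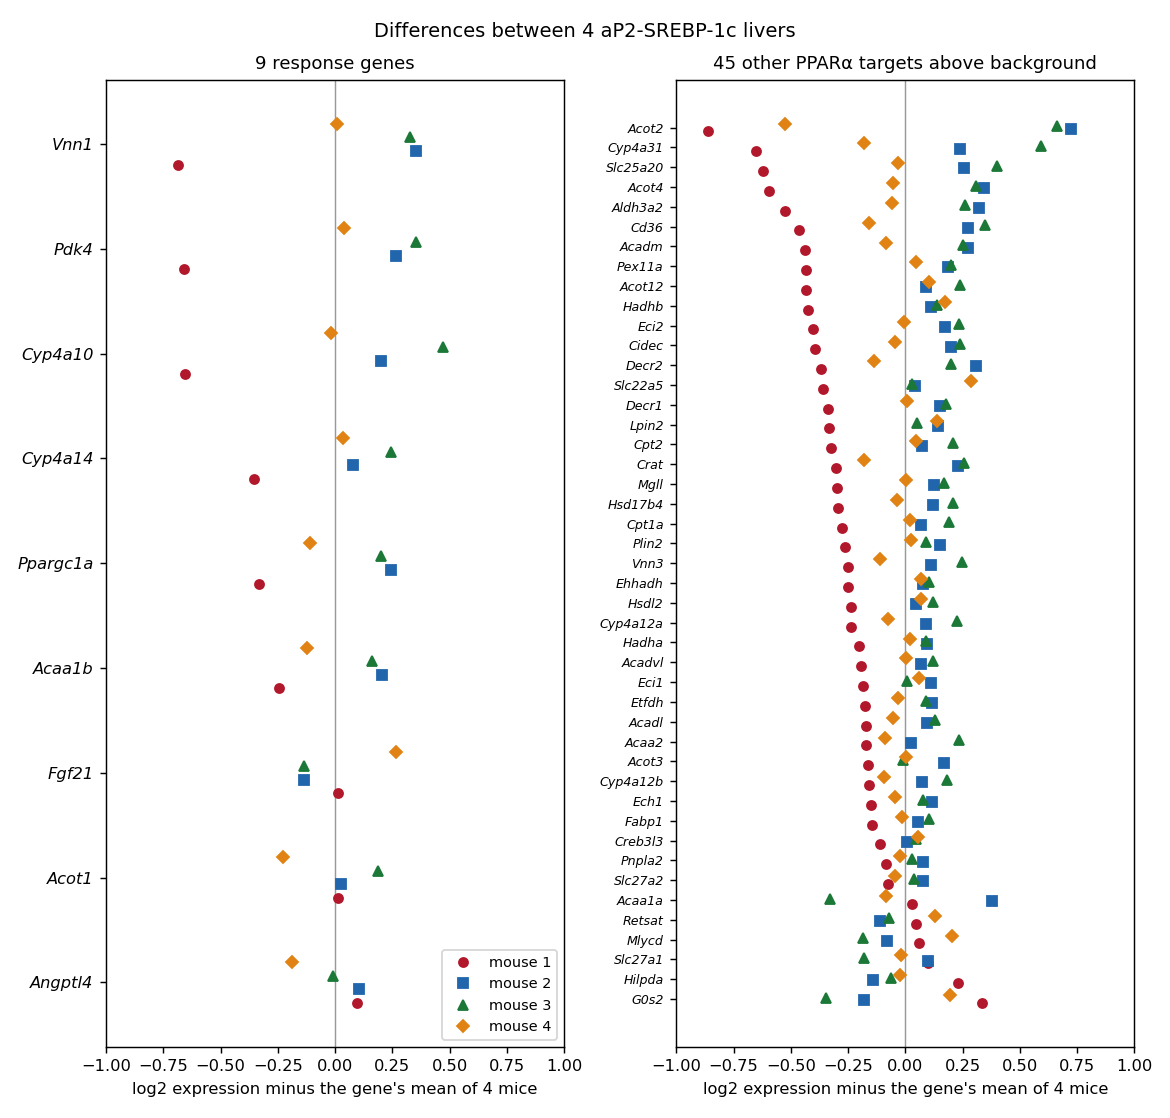
Centred log2 expression, that is the value of a mouse less the gene's mean (x axis), for the 9 response genes and the 45 other PPARα targets above background, ordered by mouse 1. Symbols stand for mice and are offset vertically for legibility. Mouse 1 lay lowest in 6 of 9 and 39 of 45 genes, and Acot2 spread most.

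**Figure D4:**
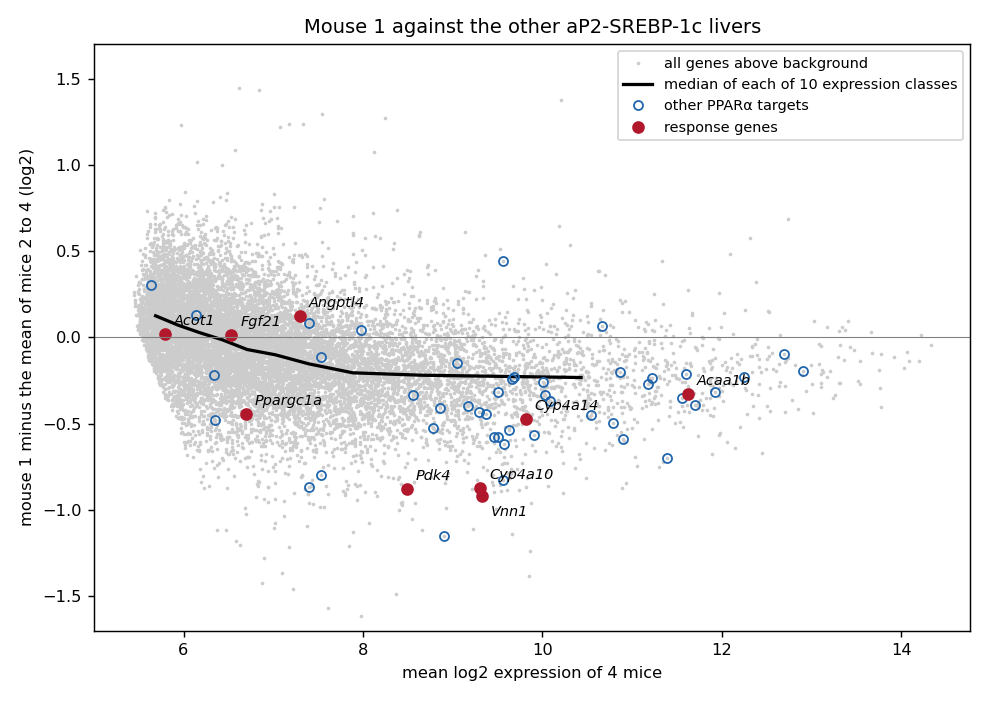
Difference of mouse 1 from the mean of mice 2 to 4 (log2, y axis) against the mean log2 expression of the 4 mice (x axis) for all genes above background, of which 6 lie beyond the plotted axis. The line joins the medians of 10 classes of mean expression, from 0.13 to -0.23. Vnn1, Pdk4 and Cyp4a10 lay well below it.

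Since bright genes as a whole were lower in mouse 1, the difference of each gene was set against the median of its own class of mean expression. For Vnn1, Pdk4 and Cyp4a10, mouse 1 differed from the other mice by -0.92, -0.88 and -0.87 on the log2 scale, while the median of the class was -0.23, -0.22 and -0.23. Cyp4a14 differed by -0.47 and Acaa1b by -0.33, with a median of -0.23 for their class. Ppargc1a differed by -0.44, with a class median of -0.07. Mouse 1 was below the median of the class in 7 of the 9 genes and in 31 of the 45 other targets, by definition the case in 50% of all genes. Among the 7 was Acot1, near background, which was not lower in mouse 1 (0.02, with a class median of 0.13). Angptl4 and Fgf21 were above their class medians.

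The receptor itself was lowest in mouse 1. Ppara was measured at 8.63, 9.44, 9.55 and 9.08 in mice 1 to 4 (log2), a range of 1.89-fold and the same order as Cyp4a10. Without mouse 1, its range was 1.39-fold. All 18 measured genes of the regulator list were above background. A range above 1.5-fold was found for 3 of them, Ppara, Klb and Lpl (16.7%), near the share of all genes (12.9%). Without mouse 1, none of the 18 had such a range (2.67% of all genes). Mouse 1 was lowest in 16 of the 18 genes, compared to 46.1% of all genes, by only 0.0054 on the log2 scale for Rxra, 0.013 for Fgfr4 and 0.034 for Ncoa1. In 12 of the 18, mouse 1 was below the median of its expression class (50% of all genes), with a median distance from it of -0.08. Klb, the coreceptor for FGF21, was measured at 7.30, 7.85, 7.91 and 7.63, and lipoprotein lipase Lpl, the enzyme inhibited by ANGPTL4, at 6.15, 7.05, 7.00 and 6.64. The other receptors of the family reached 7.35 ± 0.13 for Ppard and 8.44 ± 0.24 for Pparg (SD, n = 4 each). The partners Rxra and Rxrb reached 8.92 ± 0.11 and 6.73 ± 0.24 (SD, n = 4 each). Among coactivators, Ppargc1b was measured at 6.26 ± 0.15, Ncoa1 at 7.12 ± 0.06, Med1 at 7.22 ± 0.14, Crebbp at 8.88 ± 0.06, Ep300 at 7.86 ± 0.16 and Lpin1 at 8.18 ± 0.17 (SD, n = 4 each). Sirt1 was measured at 6.92 ± 0.08, Esrra at 7.09 ± 0.13 and Hnf4a at 10.47 ± 0.20, and the receptors for FGF21 and related factors at 6.25 ± 0.12 for Fgfr1 and 7.77 ± 0.09 for Fgfr4 (SD, n = 4 each). Of these 18 genes, only Esrra and Fgfr1 were not lowest in mouse 1.

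Fasting genes outside the PPARα pathway did not share one order of mice. Of 23 measured genes, 21 were above background, and 5 of these had a range above 1.5-fold (23.8%, compared to 12.9% of all genes). Their median SD was 0.14, compared to 0.15 for all genes above background. Asns, the asparagine synthetase of the amino acid response, was measured at 7.40, 6.42, 6.60 and 7.09 on the log2 scale, and Gadd45g, a growth arrest gene, at 7.11, 6.11, 6.23 and 6.48. Both were highest in mouse 1, followed by mouse 4, and lowest in mouse 2. The glucocorticoid-induced gene Tsc22d3 was measured at 6.30, 6.92, 7.08 and 6.72 and had the order of Cyp4a10. The other two were the insulin receptor substrate Irs2, measured at 6.32, 5.69, 5.83 and 6.08, and the coregulator Cited2, measured at 7.51, 8.12, 8.14 and 7.72. Cited2 also had the order of Cyp4a10. Mouse 1 was lowest in 10 of the 21 genes (46.1% of all genes). In 6 of the 21, mouse 1 was lowest, mouse 4 next and mice 2 and 3 highest (22.6% of all genes). The gluconeogenic genes Fbp1 (12.65 ± 0.04, SD, n = 4) and G6pc (11.72 ± 0.04, SD, n = 4) varied least.

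Genes induced by feeding varied little. All 14 measured genes were above background, and none had a range above 1.5-fold, compared to 12.9% of all genes. With 14 genes, a count of 0 lies near that share. The median SD was 0.10, compared to 0.15 for all genes above background and 0.05 for the hepatocyte markers. The largest SDs were those of Aacs (8.93 ± 0.18), Srebf1 (8.82 ± 0.17) and the elongase Elovl5 (13.11 ± 0.16), and the smallest those of Fasn (11.78 ± 0.07) and Scd1 (13.92 ± 0.07; SD, n = 4 each). Of the 14 genes, 2 lay below the median of their expression class in mouse 1, by definition the case in 50% of all genes. The count was 7 of the 9 response genes and 1 of the 6 hepatocyte markers, so a low count was not particular to feeding genes.

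Markers of other cell types were compared between the livers. Of the 5 stellate cell genes, all were above background and 3 had a range above 1.5-fold (12.9% of all genes). Without mouse 1, none of them had such a range (2.67% of all genes). In 4 of the 5, mouse 1 was lowest, mouse 4 next and mice 2 and 3 highest (22.6% of all genes). The exception was Des, measured at 6.07, 6.02, 5.97 and 5.59, which was highest in mouse 1. The mean log2 level of the 5 genes was 8.00, 8.55, 8.54 and 8.17 in mice 1 to 4. Lrat, which esterifies retinol, had the largest SD of this list and was measured at 8.29, 9.23, 9.33 and 8.84. Dcn was measured at 10.74, 11.58, 11.63 and 11.25, and Col1a1 had a range of 1.52-fold. The mean log2 level was 7.23 to 7.31 for 6 macrophage genes, 7.64 to 7.91 for 5 endothelial genes, 5.69 to 5.93 for 6 skeletal muscle genes, 5.36 to 5.66 for 6 adipocyte genes and 4.82 to 5.20 for 2 lymphocyte genes. A range above 1.5-fold, found in 12.9% of all genes, was found for 1 gene each of macrophages (Marco, 1.89-fold), endothelial cells (Lyve1, 1.69-fold) and adipocytes (Plin1, 1.95-fold). The mean levels include genes that did not pass the background limit, namely the defining adipocyte genes Adipoq and Lep, Myh4 of skeletal muscle and Cd79a of lymphocytes. The mean of the 2 lymphocyte genes lay below this limit in all 4 mice. The part of stellate, acinar or other cells in the values of the response genes was not tested. In liver tissue, fewer cells of a type and less RNA per cell cannot be told apart.

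Genes with patterns most like those of the 4 response genes with a range above 1.5-fold were sought among the 1584 genes with such a range, by the root mean square difference of centred log2 values over the 4 mice. Nearest to Cyp4a10 were Sat1, Ahr and Trim25, with differences of 0.032, 0.032 and 0.042. Nearest to Cyp4a14 were Vdac3 (0.0096), Timp2 (0.012) and Mettl6 (0.015). For Pdk4 these were Fam13a (0.014), Slc16a12 (0.021) and Psmd10 (0.021), and for Vnn1 Dglucy (0.016), Pomt1 (0.022) and Papss2 (0.030). None of these genes is on the list of PPARα targets. Between Pdk4 and Vnn1, the nearest pair of these 4 response genes, the difference was 0.051, and 20 genes were nearer to Pdk4 than Vnn1. With 4 mice, many genes share an order, and no relation was derived from it.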

How the data were processed

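Liver RNA (150 ng per mouse, RNA integrity number above 8 by the labels) of 4 aP2-SREBP-1c mice was hybridized to Mouse Gene 1.0 ST arrays. The authors deposited normalized log2 expression values. The submitters' processing notes name RMA and the Affymetrix Expression Console. Which arrays were normalized together and the genome build are not given in the sources used here. All 4 columns were matched to a mouse.

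Symbols came from the platform annotation, updated through gene identifiers to RefSeq (GRCm38.p6). Of 35556 probe sets, 21789 had 1 symbol, 1621 several and 12146 were unnamed here. Means, SDs (n = 4 mice, log2 scale) and ranges were computed in Python 3.11.15 (numpy 2.4.6, pandas 2.3.3, matplotlib 3.10.9). A one-group fit in limma 3.58.1 (R 4.3.3) was run across 12265 genes, and its intervals are not printed. Steps were tested on simulated data. Precision is limited by the number of arrays.

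The 9 genes and all lists were chosen with earlier results of these data known. Of other PPARα targets, genes with a range above 1.5-fold and the 3 smallest SDs were named. All regulators were named, and of fasting and feeding genes the 3 largest and 2 smallest SDs. Of the acinar, stellate, macrophage, endothelial and adipocyte lists, a defining marker or the largest SD was named. The hepatocyte, skeletal muscle and lymphocyte lists are given without values of single genes. Paralogs of the 9 genes and the 3 nearest patterns were added. Genes named as the members of counts of 5 or fewer or as their exceptions, such as Irs2, Cited2, Plin1, Dcn, Col1a1 and Des, were named after their values were seen. Alternatives comprised scaling, background limits (90th and 99th percentile), a 2-fold limit, the mean of probe sets and leaving out each mouse. Other phenotypes of the study were not analysed here.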

Additional observations from a re-analysis of the deposited data

Results flagged for a closer look

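In none of the 9 response genes did 1 mouse stand apart from the other 3 by Dixon's criterion for 4 values, which was passed by 5.75% of all genes above background. The largest ratio of gap to range was 0.688, for Pdk4 in mouse 1. A probe set outside the main measurement, shared by Cyp4a10, Cyp4a31 and Cyp4a32, gave signal above background in all 4 mice, with a mean of 9.14 on the log2 scale and a range of 2.14-fold.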

How the results depend on the processing

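Under the alternatives, 71 of 72 levels of the response genes stayed within 1 SD of the reported value. The exception was Ppargc1a with the mean of its probe sets (5.60, range 0.17 on the log2 scale), which was then not above background. Many of these outcomes were fixed by construction. Leaving out 1 mouse cannot move a mean of 4 values by 1 SD, and median-centring leaves the mean unchanged. Averaging probe sets can change only Ppargc1a, the only response gene with more than 1. The count of 71 therefore says little about stability. Ranges on the log2 scale with 1 mouse left out were 0.49 to 1.13 for Cyp4a10, 0.21 to 0.60 for Cyp4a14, 0.32 to 1.01 for Pdk4, 0.34 to 1.04 for Vnn1, 0.17 to 0.41 for Acot1, 0.11 to 0.29 for Angptl4 and 0.15 to 0.40 for Fgf21. The lowest values came without mouse 1 for the first 4 genes and without mouse 4 for the other 3. The range of Cyp4a14 was 0.32 with arrays centred within classes of mean expression, an alternative chosen after seeing the data. The number of response genes with a range above 1.5-fold was 0 to 4 with 1 mouse left out, the lowest without mouse 1, and 3 to 5 under scaling. For other PPARα targets it was 8 after quantile normalization, 8 with arrays centred within classes, 3 with a 2-fold limit, and 3 to 14 with 1 mouse left out, with a median SD of 0.10 to 0.24. For regulators it was 5 with median-centred arrays, 0 with a 2-fold limit and 0 to 3 with 1 mouse left out. For fasting genes it was 1 with a 2-fold limit and 1 to 5 with 1 mouse left out. For all genes it was 3749 without a filter, 138 with a 2-fold limit and 344 to 1294 with 1 mouse left out. These lowest counts also came without mouse 1. The median SD of feeding genes was 0.12 with median-centred arrays and 0.12 after quantile normalization. Median differences of the 9 genes in each mouse moved by less than the SD of these 4 medians (0.33) under all alternatives run. This is a wide measure, since the low median of mouse 1 enters it. The median of mouse 1 was -0.44 as deposited, -0.27 after quantile normalization and -0.24 with arrays centred within classes. That of mouse 4 was -0.02 as deposited, -0.30 without mouse 1 and 0.17 without mouse 3. The cause of these shifts was not tested, apart from mice left out and stricter limits by construction. Without a filter, a count above background has no meaning and was not run. Signal over background limits Acot1 most. No paired analysis was possible because all livers belong to a single group.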
